A study of Canis lupus familiaris with 8 samples.

Results

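Solute carriers are membrane proteins that move ions, amino acids, sugars, vitamins, nucleosides and metals across the plasma membrane and the membranes of organelles. In the left ventricle of dogs with alloxan-induced diabetes, 153 probe sets for 96 such gene symbols of 43 families were measured, out of 23836 probe sets tested. They are the probe sets to which the array annotation gives a single symbol that begins with SLC, a family number and A, or with SLCO. The mitochondrial carriers (SLC25A), the facilitative glucose carriers (SLC2A) and the sodium/calcium exchanger SLC8A1 were left out by name, with 33 probe sets in all. The rule reads the symbol and no measured value, but it was set with earlier results of these data known. Of the 153 probe sets, 3 carry the symbols SLC9A3R1 (1 probe set) and SLC9A3R2 (2 probe sets), which fit the pattern but encode scaffold proteins that bind sodium/hydrogen exchangers, and not carriers, and which are counted among the 153.

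DM dogs were compared with control dogs, and all were male mongrels that carried surgically implanted instruments. The DM dogs (0292, 0294, 1087 and 1111) had received 40 to 60 mg/kg alloxan, which kills the pancreatic cells that make insulin, and their hearts were taken 4 weeks later. The control dogs (D5, D6, D7 and D8) received no alloxan. The labels name the tissue as cardiac cells for the DM dogs and total cardiac cells for the control dogs. Ages were not given. A DM dog was kept only if its fasting glucose was high at a set check some days after alloxan. Some dogs whose glucose was still low at an earlier check received another injection. Which dogs these were is not given, so the total dose of each DM dog is not known. Each dog had 1 Affymetrix Canine Genome Array, so n = 4 per group, and the number of arrays limits the precision.

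In heart muscle, carriers of the plasma membrane set cell pH (sodium/hydrogen exchangers and bicarbonate carriers), cell volume and osmolytes (taurine and myo-inositol carriers), the supply of amino acids, the exchange of lactate and the uptake of adenosine. Others sit in lysosomes, the Golgi apparatus or vesicles, and ferroportin exports iron. Of 30 carriers listed for their known roles in heart, 8 were on the array by symbol: SLC4A4, SLC20A1, SLC1A1, SLC6A6, SLC38A2, SLC29A1, SLC40A1 and SLC5A3. Several of the best known ones, such as the lactate carriers SLC16A1 and SLC16A3, the creatine carrier SLC6A8 and the carnitine carrier SLC22A5, were not analysed here.

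The arrays differed in ways that bear on every value below. The 18 probe sets of the hybridization controls, transcripts added in fixed amounts to each array, averaged 16.32 ± 1.05 log2 in DM dogs and 13.88 ± 1.27 in control dogs on the deposited scale (SD, 4 dogs each). By an exact two-sided permutation test p was 0.0571, where the smallest p that 4 dogs per group allow is 0.0286. Among the controls, D8 was at 15.77, above DM dog 1111 at 15.17. No scan date or array batch was given, so an array batch and the group cannot be told apart. The summed signal of the 7 cardiomyocyte markers on the array was 98600 to 180000 in DM dogs and 241000 to 502000 in control dogs, and all 7 were lower in DM. The summed signal of the 6 macrophage markers was 18800 to 92200 in DM dogs and 3770 to 9440 in control dogs, with 4 of 6 higher and 2 lower in DM. At an unadjusted p under 0.05, 5 cardiomyocyte markers were lower and 2 macrophage markers higher. The 7 cardiomyocyte markers, MYH7, TNNT2 and MYL2 among them, had log2 signals of 7.43 or more in every dog. Each marker of every cell type was read from its brightest probe set alone. The summed markers of endothelial cells, fibroblasts, smooth muscle cells, adipocytes and neurons overlapped between the groups, and red blood cell markers were not analysed here. Fewer cells of a type and less RNA per cell cannot be told apart in such tissue, and the part of any of these measures in the carriers' values was not tested.

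No solute carrier changed past an adjusted p of 0.05. With limma and Benjamini-Hochberg adjustment over all probe sets, 0 of the 153 passed, where 0.0168% of all probe sets passed, and the smallest adjusted p of a carrier was 0.062. The methods' t-test with the same adjustment also gave 0. At an unadjusted p under 0.05, 7 carrier probe sets were higher in DM (4.58%, against 7.8% of all probe sets) and 8 were lower (5.23%, against 8.91%). In 5 that were higher (3.27%, against 4.93%) and 3 that were lower (1.96%, against 5.87%), no DM dog's value lay within the control range. The criteria of the study's methods, a nominal P of at most 0.01 and at least 2-fold, were met by 4 (2.61%, against 4.96%), namely probe sets of SLC5A10, SLC9A2, SLC38A1 and SLC5A6. Each of these shares lay below its background over all probe sets. That order turned in 6 of 99 shares recomputed under the other settings, not counting the fit without dogs D8 and 0292 together. Among the 6 were the carriers that were higher at an unadjusted p under 0.05 without DM dog 0292 (18, or 11.8%, against 9.69% of all probe sets) and with array weights (17, or 11.1%, against 10.4%). In the fit without both dogs, chosen after seeing the data, it turned for the same count (17, or 11.1%, against 10.9%). Without control dog D8, 11 carriers were lower without overlap (7.19%, against 11.7%) and 7 met the methods' criteria (4.58%, against 6.13%).

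The median log2 fold change (DM minus control) of the 153 probe sets was 0.14, with 87 higher and 66 lower and a range of -2.67 to 2.93. Over all probe sets it was 0.06. The median size of the change regardless of sign was 0.67 for the carriers and 0.76 for all. Direction depended on the scaling: without quantile normalization the medians were 0.41 for the carriers and 0.34 for all, with median centring -0.09 and -0.19, and on the scale of the hybridization controls -1.47 and -1.65. Set against the median of all probe sets, the carriers' median lay between 0.03 and 0.18 above it on the 5 scales compared.

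**Figure D1:**
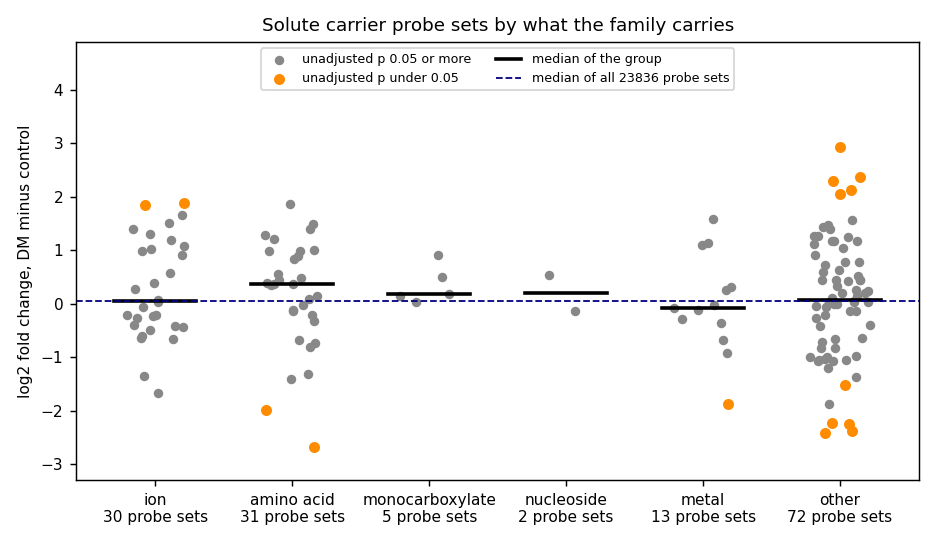
Log2 fold change (DM minus control, 4 dogs each) of each of the 153 probe sets, by what the family carries; points are probe sets, black bars are group medians and the dashed line is the median of all 23836 probe sets. The medians run from -0.07 for metal carriers to 0.37 for amino acid carriers, and the 15 orange points are those at an unadjusted p under 0.05.

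Most carriers gave weak signals. Over the 8 arrays, 55 of the 153 had a mean signal above the median of all probe sets (7.07 log2). When all probe sets were divided into 5 bins of equal size by mean signal (edges at 6.12, 6.75, 7.47 and 8.8 log2), 36, 48, 26, 26 and 17 carriers fell in the bins from dim to bright. The carriers' median log2 fold change in these bins was 0.05, 0.45, 0.26, -0.12 and 0.14, beside 0.47, 0.36, -0.07, -0.37 and -0.24 for all probe sets. Detection calls were not used here, so whether a dim probe set lay above background is not known. Signals of different probe sets are not amounts of RNA that can be ranked, and levels below are compared only between dogs.

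**Figure D2:**
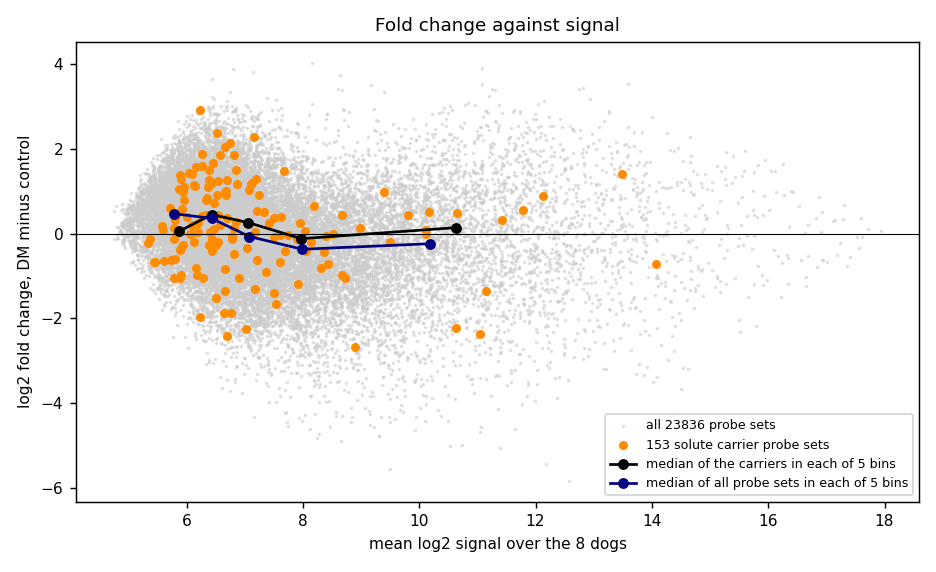
Log2 fold change (DM minus control) against the mean log2 signal over the 8 dogs, with grey points for all 23836 probe sets and orange points for the 153 carriers. Joined dots are the medians in each of 5 bins of signal, and 84 of the 153 carriers lie in the 2 dimmest bins, where the median of all probe sets is above 0.

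The largest positive difference and the smallest p among the carriers were both of SLC5A10, a sodium-coupled carrier of mannose and fructose known from the kidney. The gene identifier that the array annotation gives its 3 probe sets is not in the RefSeq gene table used here, which lists the symbol under another identifier, so the name rests on the array annotation. Its probe set 1589204_s_at had log2 signals of 7.99, 6.78, 7.67 and 8.36 in the DM dogs and 4.84, 4.68, 4.56 and 5.00 in the control dogs. All 4 DM dogs lay above all 4 control dogs, whose deposited signals were only 3.09 to 16.6 (102 to 487 in DM dogs). It averaged 7.70 ± 0.68 in DM dogs and 4.77 ± 0.19 in control dogs (SD, n = 4 each). The log2 fold change was thus 2.93 with a standard error of 0.58 (7.62-fold, limma adjusted p = 0.062). Because the control signals lay near the offset of 16, the log2 fold change was 4.11 with no offset and 1.78 with an offset of 64. The adjusted p was 0.0497 with that larger offset, 0.0352 with median centring, 0.0213 with array weights, 0.0448 without control dog D8 and 0.0443 without DM dog 1111, and between 0.0643 and 0.27 in the other single-step alternatives.

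A second SLC5A10 probe set, 1589203_at, also separated the groups, at 7.65, 7.93, 8.01 and 7.69 in DM dogs and 4.85, 5.74, 4.82 and 7.35 in control dogs. Its log2 fold change was 2.13 (SE 0.66, adjusted p = 0.142), and control dog D8 was the one near the DM dogs. On the deposited scale D8 (164) lay above DM dog 1111 (130). The third, 1597028_at, differed by 0.91 with overlapping groups (95% confidence interval -0.85 to 2.67). SLC5A12, a low-affinity sodium-coupled lactate carrier, had 4 probe sets, all higher in DM, by 0.60 to 2.05 (1 of 4 on the scale of the hybridization controls, and 2 of 3 for SLC5A10). In 1597045_at the DM dogs were at 9.01, 8.05, 6.76 and 6.96 and the control dogs at 4.64, 5.03, 5.87 and 7.04 (log2 fold change 2.05, adjusted p = 0.186), so D8 overlapped the DM dogs. The SLC5 family as a whole had 9 of 11 probe sets higher and a median of 0.91 (8 of 11 with cyclic loess). On the scale of the hybridization controls 3 of its 11 were higher and the median was -0.73, which was 0.92 above the median of all probe sets on that scale. The sodium/myo-inositol carrier SLC5A3, which takes up an osmolyte, was at 4.87, 8.09, 8.97 and 7.85 in DM dogs and 6.77, 5.35, 5.56 and 7.39 in control dogs. Its difference of 1.18 had an interval of -0.68 to 3.04. The family's vitamin carrier SLC5A6, which takes up biotin and pantothenate, differed in the other direction in 2 of its 3 probe sets. In 1596934_at the groups did not overlap, with DM dogs at 7.02 to 7.59 and control dogs at 7.93 to 9.17 (log2 fold change -1.19, adjusted p = 0.306). The deposited signals of 1596934_at did overlap (123 to 215 in DM dogs and 157 to 510 in control dogs).

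The other 4 probe sets that were higher at an unadjusted p under 0.05 belonged to SLC15A1, SLC23A2, SLC9A2 and SLC4A11. SLC15A1, the proton-coupled peptide carrier of the intestine, was at 6.89, 5.88, 9.56 and 8.54 in DM dogs and 5.57, 5.98, 4.55 and 5.27 in control dogs (log2 fold change 2.38, SE 0.79, adjusted p = 0.165). SLC23A2, a sodium-coupled carrier of ascorbic acid, was at 8.82, 7.64, 8.77 and 7.98 in DM dogs and 7.58, 6.70, 4.80 and 4.96 in control dogs in its probe set 1595137_at (log2 fold change 2.29, SE 0.72, adjusted p = 0.146). The groups of SLC15A1 overlapped by 1 dog on either side, and those of SLC23A2 were parted by the small gap between DM dog 0294 and control dog D5. The mean control signal of the 7 higher probe sets was 4.77 to 6.01 log2, close to the floor that the offset sets, and none of them had a mean over the 8 arrays above 7.16.

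The 8 probe sets that were lower at an unadjusted p under 0.05 had mean control signals of 7.23 to 12.24 log2. They belonged to SLC38A2, SLC10A1, SLC15A4 (2 probe sets), SLC22A17, SLC38A1, SLC40A1 and SLC35A1. SLC15A4, a proton-coupled carrier of histidine and peptides in lysosomes, was lower in all 3 of its probe sets on each of the 5 scales compared. The brightest, 1593566_s_at, was at 7.10, 9.57, 11.29 and 11.49 in DM dogs and 12.73, 12.39, 12.85 and 10.99 in control dogs (log2 fold change -2.38, SE 0.91, adjusted p = 0.216). Dog D8 lay among the DM dogs, and dogs D5, D6 and D7 lay above them all. The other SLC15A4 probe sets had log2 fold changes of -2.22 (adjusted p = 0.268) and -1.87 (adjusted p = 0.301).

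SLC10A1, the sodium/bile acid carrier of liver, was at 4.67, 5.13, 5.00 and 7.17 in DM dogs and 8.48, 8.26, 8.15 and 6.76 in control dogs (log2 fold change -2.42, SE 0.70, adjusted p = 0.125). Only the pair of DM dog 1111 and control dog D8 broke the separation, and the adjusted p was 0.0434 without dog 1111 and 0.0448 with array weights. SLC22A17, a receptor of lipocalin, was at 8.16, 5.22, 5.04 and 5.15 in DM dogs and 8.28, 8.29, 7.95 and 8.05 in control dogs in 1583833_at (log2 fold change -2.25, SE 0.73, adjusted p = 0.158). There the exception was DM dog 0292, which stood at the level of the controls, and with array weights the adjusted p was 0.0324. Its second probe set, 1602665_s_at, differed by 0.44. SLC35A1, which brings CMP-sialic acid into the Golgi apparatus, was lower by 1.52 on the log2 scale in 1582468_at (a log2 fold change of -1.52, adjusted p = 0.288) and differed by 0.44 in 1582469_at.

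Control dog D8 was the control nearest to the DM dogs in 10 of these 15 probe sets, 4 of the 7 higher and 6 of the 8 lower. In the whole array, 3983 probe sets had an unadjusted p under 0.05, and D8 was nearest in 2239 of them, or 56.2%. The 7 higher and the 8 lower kept their directions on each of the 5 scales compared, including that of the hybridization controls, where their median log2 fold changes were 0.64 and -3.74. There SLC4A11 was higher by only 0.06 (limma adjusted p = 0.963) and SLC5A10 1589204_s_at by 1.84 (adjusted p = 0.0824). The 15 were chosen by their p in these same data, so a kept direction is no independent support.

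**Figure D3:**
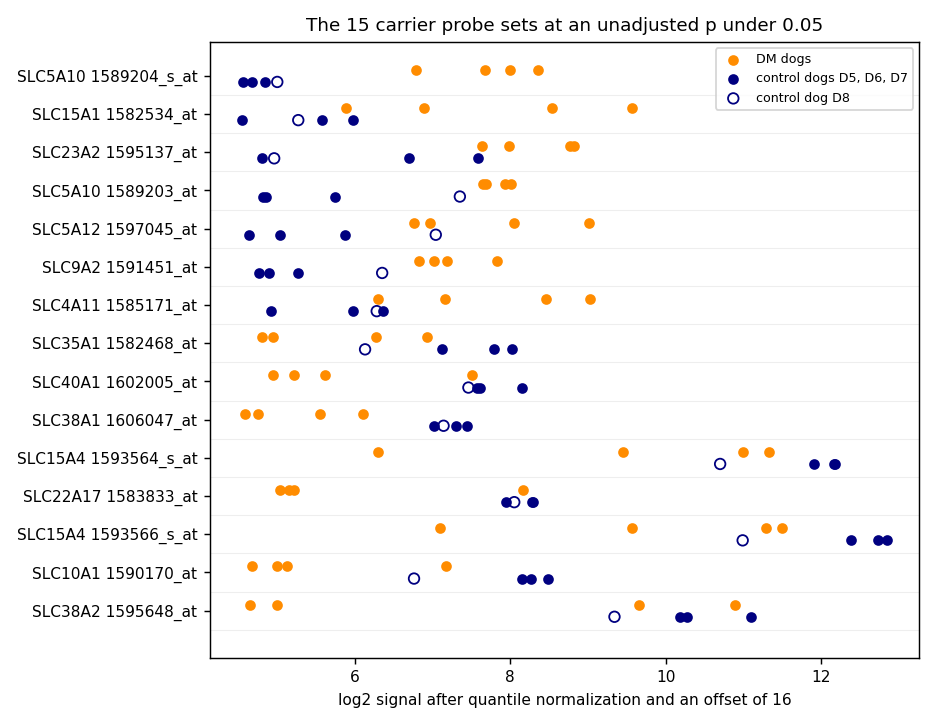
Log2 signal of every dog for the 15 carrier probe sets at an unadjusted p under 0.05, with DM dogs (orange) above control dogs (blue) in each row, and control dog D8 as an open circle. On this scale, after quantile normalization, the groups are fully parted in SLC5A10 (both rows), SLC23A2, SLC9A2 and SLC38A1. D8 is the control nearest to the DM dogs in 10 rows.

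The ion group gave 30 probe sets of 17 genes, and it includes the 3 probe sets of the scaffolds SLC9A3R1 (-0.43) and SLC9A3R2 (1.51 and -1.66). Of the 30, 16 were higher and 14 lower, with a median of 0.06. The split was 14 and 16 with median centring or cyclic loess, and 4 and 26 on the scale of the hybridization controls. At an unadjusted p under 0.05, 2 were higher and 0 lower. The sodium/hydrogen exchanger SLC9A2 was at 7.83, 7.02, 7.18 and 6.83 in DM dogs and 4.89, 5.27, 4.76 and 6.35 in control dogs (log2 fold change 1.89, SE 0.60, adjusted p = 0.147). Every DM dog was above every control dog, though on the deposited scale DM dog 1111 (71.8) was just below control dog D8 (71.9). The exchangers SLC9A5, SLC9A8, found in the Golgi apparatus, and SLC9A9, found in endosomes, differed by 0.98, 0.27 and 1.09 with adjusted p values of 0.485 or more. SLC4A11, a member of the bicarbonate carrier family known from the cornea, was at 9.03, 7.16, 6.29 and 8.46 in DM dogs and 4.92, 6.36, 5.98 and 6.28 in control dogs (log2 fold change 1.85, SE 0.71, adjusted p = 0.216).

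For the sodium/bicarbonate cotransporter SLC4A4, which brings bicarbonate into heart cells, the 5 probe sets did not point one way. Its brightest, 1594765_at, was at 7.55, 5.69, 9.00 and 5.38 in DM dogs and 6.53, 7.72, 7.43 and 8.46 in control dogs, a difference of -0.63 with an interval of -2.40 to 1.14. The others ran from -0.27 to 1.40. The anion exchanger SLC4A2 was near 0 in 1587272_x_at (-0.05, interval -1.26 to 1.16) and at -0.23 and -0.66 in its other 2. The phosphate carrier SLC20A1 was at 9.02, 10.81, 10.75 and 11.31 in DM dogs and 12.26, 12.05, 12.27 and 10.71 in control dogs (log2 fold change -1.35, interval -2.80 to 0.10, adjusted p = 0.333). Dogs D5, D6 and D7 were above all DM dogs and D8 was among them. The cotransporter SLC12A3 and the phosphate carrier SLC34A1, both known from kidney tubules, had 3 and 4 probe sets between -0.40 and 1.20, with adjusted p values of 0.51 or more.

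The families grouped as amino acid carriers, by family number and not gene by gene, gave 31 probe sets of 21 genes. Of these, 19 were higher and 12 lower, with a median of 0.37. The split was 14 and 17 with median centring and 2 and 29 on the scale of the hybridization controls. None was higher at an unadjusted p under 0.05, and 2 were lower, both from the sodium-coupled neutral amino acid carriers SLC38A1 and SLC38A2. SLC38A1 was at 4.58, 4.75, 6.10 and 5.55 in DM dogs and 7.02, 7.30, 7.44 and 7.14 in control dogs in 1606047_at (log2 fold change -1.98, SE 0.58, adjusted p = 0.127). These groups did not overlap. Its other probe set, 1589071_at, ran the other way, at 4.94, 9.00, 7.40 and 8.69 in DM dogs and 5.32, 4.86, 4.86 and 7.57 in control dogs (log2 fold change 1.86, adjusted p = 0.332). Without dogs D8 and 0292 together, a choice made after seeing the data, it was 3.32 higher with an adjusted p of 0.0303.

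SLC38A2, a carrier that cells induce when amino acids are scarce, split in the same manner. Probe set 1595648_at was at 4.65, 5.00, 9.66 and 10.89 in DM dogs and 11.10, 10.27, 10.18 and 9.34 in control dogs (log2 fold change -2.67, SE 1.22, adjusted p = 0.292). Only dogs 0292 and 0294 were low, with deposited signals of 23.8 and 20.4, and dogs 1087 and 1111 lay within the control range. The other 3 probe sets were higher in DM by 0.49, 0.56 and 0.89. In 1589920_s_at the 4 DM dogs (10.62 to 11.09) lay just above the 4 control dogs (10.13 to 10.60), with an interval of -0.66 to 1.64. The deposited signals of 1589920_s_at overlapped (1230 to 2140 in DM dogs and 1270 to 1790 in control dogs). The brightest of the 4, 1595649_s_at, was at 12.80, 11.89, 12.85 and 12.70 in DM dogs and 11.92, 11.14, 12.26 and 11.36 in control dogs (adjusted p = 0.461).

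**Figure D4:**
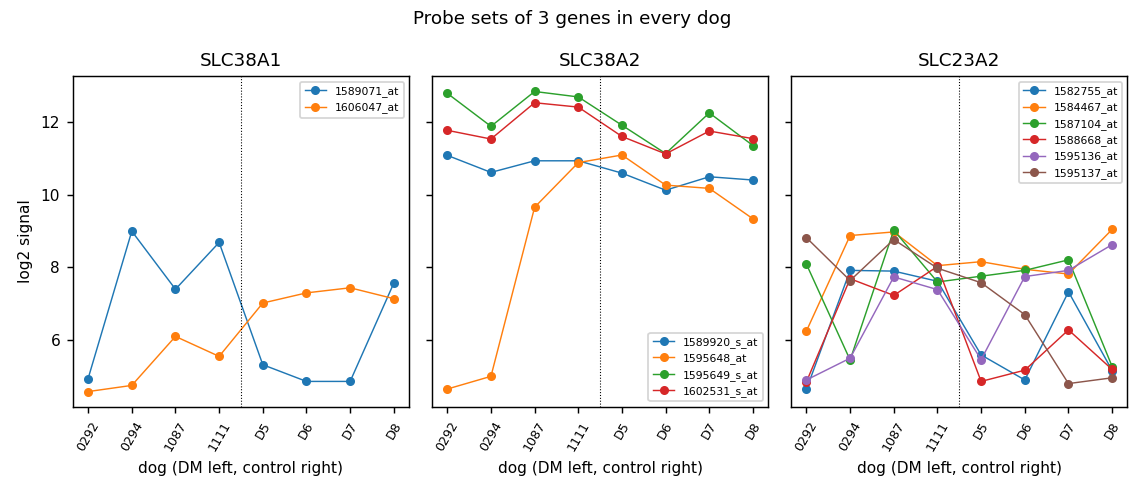
Log2 signal in each dog, DM dogs left of the dotted line and control dogs right of it, for every probe set of SLC38A1, SLC38A2 and SLC23A2, with 1 line per probe set. The 2 SLC38A1 lines cross between the groups, 1 of the 4 SLC38A2 lines drops in dogs 0292 and 0294 only, and the 6 SLC23A2 lines differ by -1.06 to 2.29 log2 between the groups.

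The taurine carrier SLC6A6, which serves cell volume in heart muscle, had 2 probe sets. In 1582390_at the DM dogs were at 7.55, 7.38, 7.47 and 4.78 and the control dogs at 7.98, 7.94, 8.47 and 8.44, without overlap (log2 fold change -1.41, interval -2.92 to 0.10, adjusted p = 0.33). Its deposited signals did overlap, at 343, 183, 171 and 6.73 in DM dogs and 142, 152, 267 and 335 in control dogs. In 1582389_at only dogs 0292 and 0294 (5.17 and 8.06) were below the controls (8.64 to 9.00), and dogs 1087 and 1111 (9.66 and 9.36) were above them all. The log2 fold change was -0.73 (adjusted p = 0.709), and 0.27 without dog 0292. The glutamate carrier SLC1A1 differed by -0.12 (interval -1.81 to 1.56) and SLC1A3 by 0.09 (interval -1.25 to 1.43). SLC1A2, also a glutamate carrier, was higher by 0.98 and 0.99 in its 2 probe sets (adjusted p = 0.448 and 0.518). SLC66A3, of the lysosomal PQ-loop family, was at 14.58, 13.57, 15.99 and 12.62 in DM dogs and 12.34, 12.86, 12.91 and 13.06 in control dogs (log2 fold change 1.40, adjusted p = 0.353). In 3 of 4 DM dogs it was above all controls.

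The monocarboxylate carriers on the array were SLC16A4, SLC16A13 and SLC16A14, with 5 probe sets between 0.03 and 0.92 and adjusted p values of 0.629 or more. All 5 were higher, 4 with median centring, 3 with cyclic loess and 0 on the scale of the hybridization controls. SLC16A13 was the steadiest, at 9.24, 8.98, 9.81 and 8.19 in DM dogs and 8.57, 8.78, 9.12 and 9.18 in control dogs, a difference of 0.14 with an interval of -1.11 to 1.39. The nucleoside carriers were SLC29A1, which equilibrates adenosine across the membrane, and SLC28A1, which concentrates pyrimidine nucleosides. SLC29A1 was at 6.18, 9.05, 7.82 and 8.67 in DM dogs and 8.95, 9.31, 8.68 and 5.30 in control dogs, a difference of -0.13 with an interval of -2.12 to 1.86. The lowest of all 8 values was that of control dog D8, and without it the difference was -1.06. SLC28A1 differed by 0.54 (interval -1.19 to 2.28).

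Of 13 metal carrier probe sets of 11 genes, 5 were higher and 8 lower, with a median of -0.07; 8 were higher without quantile normalization, 7 with cyclic loess and 0 on the scale of the hybridization controls. The iron exporter SLC40A1 (ferroportin) was at 4.95, 7.50, 5.62 and 5.22 in DM dogs and 7.61, 7.57, 8.15 and 7.46 in control dogs in 1602005_at (log2 fold change -1.88, SE 0.66, adjusted p = 0.184). Dogs 0292, 1087 and 1111 were below the controls and dog 0294 (7.50) was just above D8 (7.46). The second probe set, 1584484_at, was at 7.85, 9.19, 5.79 and 8.09 in DM dogs and 7.39, 7.92, 7.54 and 8.17 in control dogs (-0.03, interval -1.58 to 1.52). SLC11A1, the metal carrier of macrophage phagosomes, was at 4.75, 7.19, 5.54 and 5.47 in DM dogs and 7.24, 5.79, 6.73 and 4.59 in control dogs, a difference of -0.35 (interval -1.95 to 1.25). The magnesium carrier SLC41A3 was higher by 1.59 (adjusted p = 0.375), and the zinc carriers SLC39A6, SLC39A8 and SLC39A12 differed by 1.14, -0.07 and -0.91, with adjusted p values of 0.474 or more.

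The remaining 72 probe sets, of peptide, vitamin, organic ion, nucleotide sugar and other carriers, had 41 higher and 31 lower and a median of 0.08 (31 and 41 with median centring, 7 and 65 on the scale of the hybridization controls). They hold 10 of the 15 at an unadjusted p under 0.05. Among the rest, SLC22A3, an organic cation carrier that takes up catecholamines, was bright in 1597798_at, at 14.21, 12.66, 13.43 and 14.55 in DM dogs and 14.48, 14.48, 14.44 and 14.32 in control dogs (log2 fold change -0.72, adjusted p = 0.577). Its dimmer probe set, 1597514_at, differed the other way, by 1.05 (adjusted p = 0.489). In 1597798_at the control dogs lay within a narrow range and the DM dogs did not. SLC33A1, the acetyl-CoA carrier of the endoplasmic reticulum, showed the same, at 10.20 to 12.45 in DM dogs and 11.15 to 11.40 in control dogs (0.33, adjusted p = 0.831). The vesicular monoamine carrier SLC18A2 was at 5.03 in dog 0292 and 8.05 to 9.86 in the other DM dogs, against 8.90 to 9.52 in control dogs (-0.99, adjusted p = 0.627).

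Such a wider spread among DM dogs was general. The SD among DM dogs exceeded that among control dogs in 110 of the 153 probe sets (71.9%, against 76.7% of all probe sets), and the median SD was 1.33 log2 in DM dogs and 0.85 in control dogs (1.23 and 0.70 over all probe sets). Across the 153 probe sets, the DM arrays had a mean Pearson r of 0.415 to 0.549 with the other DM arrays, lowest in dog 0292, and each correlated more with the control arrays (0.462 to 0.65). Over all probe sets these values were 0.55 to 0.655 with the other DM arrays and 0.544 to 0.769 with the control arrays. Across the carriers, the control arrays had 0.763 to 0.80 with each other, except D8 with 0.685. The r values run over probe sets, which are no independent replicates, so they describe the arrays only.

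Probe sets of a gene often disagreed. Of the 34 genes with several probe sets (91 in all, the scaffold SLC9A3R2 among them), 14 had them all on one side and 20 had them on both sides, and among the 19 genes with 2 probe sets 11 were split. Without SLC9A3R2 there were 33 carrier genes, 19 of them split. In 9 genes at least 1 probe set had an unadjusted p under 0.05, and in 0 of them did all. The median distance between the lowest and highest log2 fold change of a gene was 1.44. SLC23A2 had 6 probe sets: 1595137_at (2.29), 1588668_at (1.57, adjusted p = 0.308), 1582755_at (1.27), 1587104_at (0.25), 1584467_at (-0.21) and 1595136_at (-1.06). The scaffold SLC9A3R2 was at 1.51 and -1.66. When the probe sets of each gene were averaged first, 96 genes were tested and 0 had an adjusted p under 0.05, 4 were higher and 2 lower at an unadjusted p under 0.05 (7.73% and 8.39% of all so averaged).

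**Figure D5:**
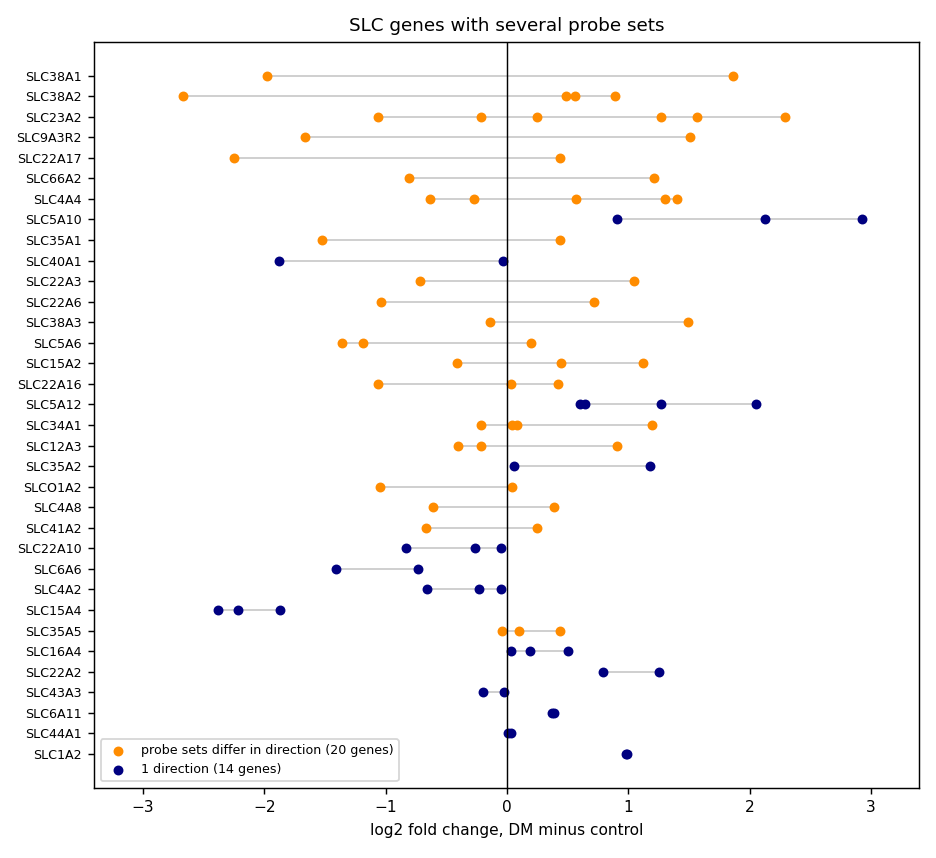
Log2 fold change (DM minus control) of each probe set of the 34 SLC genes that have several, the scaffold SLC9A3R2 included, 1 row per gene, ordered by the distance between its lowest and highest. Orange rows are the 20 genes whose probe sets lie on both sides of 0 and blue rows the 14 on one side, among them SLC5A10 and SLC5A12 above 0 and SLC15A4 below it.

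Proteins that work with these carriers were listed by role (40 genes, of which 27 were on the array). The list was written with earlier results of these data known, so its counts describe the listed genes and are no independent test. Each is given only by its probe set of highest mean signal, and any other probe sets of these genes were not examined. Of the 27, 3 were higher and 4 lower at an unadjusted p under 0.05 and 0 passed an adjusted p of 0.05, with a median of -0.06. The backgrounds over the whole array were 7.8% and 8.91% for that p, and 4.93% and 5.87% for values without overlap. The 3 that were higher did not overlap between the groups. CDO1, the cysteine dioxygenase of taurine synthesis, was at 13.41, 12.08, 13.79 and 12.10 in DM dogs and 8.75, 8.95, 9.90 and 9.70 in control dogs (log2 fold change 3.52, SE 0.63, adjusted p = 0.0608). The transferrin receptor TFRC, which takes up iron, was at 7.21, 9.08, 7.69 and 7.36 in DM dogs and 4.89, 5.20, 4.74 and 4.83 in control dogs (log2 fold change 2.92, SE 0.60, adjusted p = 0.0671). Embigin (EMB), a chaperone of monocarboxylate carriers, was at 8.51, 8.22, 8.49 and 7.84 in DM dogs and 5.66, 6.07, 4.61 and 5.52 in control dogs (log2 fold change 2.80, SE 0.57, adjusted p = 0.0667).

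Neuroplastin (NPTN), another chaperone of monocarboxylate carriers, was at 11.48, 10.59, 11.19 and 12.68 in DM dogs and 13.77, 13.51, 13.99 and 12.84 in control dogs (log2 fold change -2.04, SE 0.62, adjusted p = 0.139). AHCYL1, which binds and activates sodium/bicarbonate cotransporters, was at 7.32, 7.53, 5.74 and 6.02 in DM dogs and 8.73, 9.34, 9.60 and 8.96 in control dogs (log2 fold change -2.50, SE 0.62, adjusted p = 0.0918). The kinase STK39, which phosphorylates cation-chloride cotransporters, was at 8.11 to 9.94 in DM dogs and 10.40 to 10.70 in control dogs (log2 fold change -1.53, adjusted p = 0.222). None of these 3 overlapped between the groups. Adenosine deaminase (ADA) was low in dogs 0292 and 0294 (5.34 and 4.83) and at 9.69 and 9.36 in the other DM dogs, against 9.15 to 9.78 in control dogs (log2 fold change -2.26, adjusted p = 0.286). The 2 dogs that were low for ADA were those in which SLC38A2 1595648_at was low.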

How the data were processed

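The authors deposited 1 signal intensity per probe set and array, made with MAS 5.0 (MAS5 per the labels, version not given), on a linear scale and scaled to a mean of about 500 after trimming 2% at either end. Replicates were not pooled. The RMA normalization that the methods name is not in these values. Scanner images and detection calls were not used here. Trimmed means were set to exactly 500, quantile normalization ran over 23913 probe sets (77 of them manufacturer's controls, left out afterwards), and values were taken as log2(signal + 16). Groups (n = 4 each) were compared with limma 3.58.1 (lmFit, eBayes; R 4.3.3), two-sided, group alone in the design, with Benjamini-Hochberg adjustment over 23836 probe sets; confidence intervals are from this fit. The methods' t-test ran on the same values. Hybridization controls were compared by exact permutation over 70 assignments. Gene symbols came from the array's annotation (10549 probe sets with 1 symbol, 138 with several, 13149 with none listed), and 149 of 153 members matched a gene identifier in RefSeq's table (all but the 3 of SLC5A10 and 1 of SLC52A3), with 0 changed symbols.

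The members, families, partner genes, marker lists and the rule for named genes were chosen with earlier results of these data known. The rule names members whose groups do not overlap at an unadjusted p under 0.05, the 2 smallest p values of each group, the listed heart carriers by their brightest probe set, the other probe sets of such genes, and the members that encode no carrier: 31 probe sets of 20 genes. Other probe sets given with values were chosen after their values were seen. The steps were tested on simulated data with independent probe sets and the same SD in both groups. That test does not show how they behave with the wider spread among DM dogs or with outlying arrays. Alternatives were other scalings, offsets, a filter on dim probe sets, array weights, averaging the probe sets of a gene, the methods' t-test and leaving out each dog. No sequence was read. Tables used pandas 2.3.3 and figures matplotlib 3.10.9.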

Additional observations from a re-analysis of the deposited data

Results flagged for a closer look

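Within groups of 4 dogs, 9 values stood far from the other 3 by Dixon's criterion for the gap to the nearest value, of 64 groups examined. Chance would give about 1 in 20, or 3.2 of 64, if the groups were independent. They are not, since they share the same 8 arrays and many probe sets were named for their values. Control dog D8 accounted for 6 of the 9. It was lowest of the controls for SLC29A1 at 5.30 (others 8.68 to 9.31), SLC20A1 at 10.71 (12.05 to 12.27), SLC23A2 1587104_at at 5.27 (7.76 to 8.21) and SLC9A3R2 1602783_at at 5.97 (9.13 to 9.19). It was highest of them for SLC38A1 1589071_at at 7.57 (4.86 to 5.32) and for the hybridization controls at 15.77 (13.09 to 13.36). Among DM dogs, 1111 was lowest for SLC16A4 1597248_at at 5.76 (8.05 to 8.49), 0294 for SLC38A2 1595649_s_at at 11.89 (12.70 to 12.85) and 0292 for SLC23A2 1582755_at at 4.64 (7.62 to 7.92).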

How the results depend on the processing

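Some of the 31 named probe sets changed direction with the processing, with differences of up to 1.59 before. With arrays scaled to the hybridization controls, log2 fold changes became -0.09 (SLC41A3), -0.58 (SLC16A14), -1.35 (SLC16A4), -0.95 (SLC28A1), -1.78 (SLC38A2 1595649_s_at), -0.32 (SLC5A3), -0.73 (SLC5A10 1597028_at), -0.01 and -1.47 (SLC23A2 1582755_at and 1587104_at) and -0.41 (SLC9A3R2 1588065_at). Median centring gave -0.01 for SLC38A2 1595649_s_at. Without quantile normalization, SLC1A1 was at 0.26, SLC40A1 1584484_at at 0.46 and SLC23A2 1584467_at at 0.24. Cyclic loess gave 0.30 and 0.23 for these SLC40A1 and SLC23A2 probe sets, an offset of 64 gave 0.06 for SLC40A1, and array weights gave 0.29 and -0.18 for SLC23A2 1584467_at and 1587104_at. Leaving out 1 dog at a time, the ranges that crossed 0 were -0.58 to 0.27 (SLC1A1), -0.51 to 0.42 (SLC23A2 1584467_at), -0.41 to 0.96 (SLC23A2 1587104_at), -0.17 to 1.05 (SLC28A1), -1.06 to 0.41 (SLC29A1), -0.51 to 0.63 (SLC40A1 1584484_at), -1.27 to 0.27 (SLC6A6 1582389_at) and -1.03 to 0.62 (SLC9A3R1).

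Counts of carriers moved as well. Scaling to the hybridization controls gave 37 past an adjusted p of 0.05, 1 higher and 52 lower at an unadjusted p under 0.05, 1 higher and 14 lower without overlap, 10 by the methods' criteria and a median of -1.47. Of all probe sets, 7675 passed (32.2%, against 24.2% of the carriers) and the median was -1.65 on that scale. Without quantile normalization 12 were higher and 5 lower at an unadjusted p under 0.05 (7.84% and 3.27%, against 10.8% and 7.08% of all), with a median of 0.41. There 4 were higher and 2 lower without overlap (2.61% and 1.31%, against 5.56% and 5.04%). With median centring 1 passed the adjusted p (0.654%, against 1.48% of all) and the median was -0.09. An offset of 64 let 1 pass (against 1.87% of all). Array weights let 4 pass (SLC5A10 by 2 probe sets, SLC22A17 and SLC10A1, or 2.61%, against 3.87% of all). With them 17 were higher at an unadjusted p under 0.05 (11.1%, against 10.4%). Among the 55 bright members, 1 was higher and 3 lower at an unadjusted p under 0.05 (1.82% and 5.45%, against 7.8% and 14.8% of all bright probe sets). There 2 were higher without overlap (3.64%, against 5.52%) and 1 met the methods' criteria (1.82%, against 6.63%). Averaging the probe sets of a gene gave 4 higher and 2 lower at an unadjusted p under 0.05 (4.17% and 2.08%, against 7.73% and 8.39% of all). It gave 3 and 0 without overlap (3.12% and 0%, against 4.81% and 5.43%) and 2 by the methods' criteria (2.08%, against 4.72%). The methods' t-test gave 5 lower at an unadjusted p under 0.05. Other causes were not tested.

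Without 1 dog at a time, 0 to 2 passed the adjusted p (2 without 1111, or 1.31%, against 1.99% of all, and 1 without D8). At an unadjusted p under 0.05, 7 to 18 were higher and 5 to 11 lower. Without 0292 these were 18 and 7 (11.8% and 4.58%, against 9.69% and 9.68% of all). Without D8 they were 11 and 11 (7.19% each, against 7.96% and 9.64%). Without D5, D6 or D7, 5 were lower (3.27%, against 5.83%, 5.71% and 6.14%). Without overlap, 5 to 13 were higher and 4 to 11 lower. These were 13 and 7 without 0292 (8.5% and 4.58%, against 9.25% and 8.39%), and 11 and 6 without 0294 (7.19% and 3.92%, against 7.44% and 7.95%). They were 9 and 7 without 1111 (against 8.5% and 10.1% of all), 9 and 11 without D8 (against 9.24% and 11.7%), and 8 higher without D6 (against 5.85%). The methods' criteria were met by 2 to 7 (2 without 1087 or D6, against 3.83% and 2.55%, and 7 without D8, against 6.13%). The hybridization controls differed by 1.97 to 3.07 log2 (3.07 without D8, exact permutation p = 0.0286, and p = 0.0571 to 0.0857 without each other dog). The p of 0.0286 is the lowest that this test can give with so few dogs, so these p values move in coarse steps. Leaving out D8 and 0292 together, chosen after seeing the data, gave 6 past the adjusted p (3.92%, against 3.99% of all), 17 higher at an unadjusted p under 0.05 (11.1%, against 10.9%), 21 higher and 15 lower without overlap (13.7% and 9.8%, against 14.9% and 15.4%) and 9 by the methods' criteria (5.88%, against 8.11%). SLC6A6 1582389_at was then at 0.30, SLC40A1 1584484_at at 0.16, SLC23A2 1584467_at at 0.75 and 1587104_at at -0.52. No paired analysis was possible because the dogs of the 2 groups share no replicate numbers.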
